A study of Mus musculus with 4 samples.

Results

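The mammalian circadian clock was followed through its 10 core genes in fibroblasts taken from mouse mammary tumours. The members were a named list: the activators Arntl, Clock and Npas2, the repressors Per1, Per2, Per3, Cry1 and Cry2, and the nuclear receptor repressors Nr1d1 and Nr1d2. All 10 were found among the 22456 genes of the deposited table. The members were chosen by a list drawn up with the GSK and DMSO values of these libraries already known. The differences of the members between those groups are therefore given as a description, with no p-value for a single member, and support nothing. The number of members that the model across all genes called is given beside the share of all genes.

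The tumours grew in Balb/cAnN mice from 4T1 cells, a Balb/c mammary carcinoma line, transplanted orthotopically, and were studied 8 days after fat pad injection. The cancer cells had been pre-treated with the solvent DMSO (2 libraries) or for 5 days with 5 µM of the compound GSK269962A (2 libraries, called GSK). The host animals and the fibroblasts are thus described alike in both groups, and the labels place the compound on the cancer cells. Fibroblasts are what remained after cells binding antibodies to CD45, CD31, CD326 or human CD2 had been held back on magnetic columns. The labels give neither the time of day at which tissue was taken nor whether libraries of a group came from separate animals, so any p-value measures only the spread between these samples.

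Expression is given as log2 values that the authors had normalised, and the read depth of each library is unknown. The mean of 10 fibroblast identity genes was 15.5 to 15.6 (log2) in the 4 libraries, against 2.99 to 3.07 for 8 epithelial or 4T1 genes, 4.39 to 4.47 for 8 endothelial genes and 4.59 to 4.77 for 9 pan-leukocyte genes, on deposited values that are not adjusted for gene length. Levels within the epithelial and endothelial lists were uneven. Epcam, at 0.32 in each library, and Cldn5, at 0.29 to 0.31, were near 0 and the lowest of their lists. Epithelial Krt19, in contrast, averaged 8.963 in DMSO and 8.674 in GSK. Endothelial Flt1 averaged 10.587 in DMSO and 11.101 in GSK, and Tek 7.695 and 7.592. Pericyte and smooth muscle genes, which the depletion did not target, averaged 10.6 to 10.9. In bulk libraries such as these, fewer cells of a type and less RNA per cell cannot be told apart.

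The clock is a feedback loop of transcription. BMAL1, the product of Arntl, pairs with CLOCK or its relative NPAS2 and activates genes that carry E-box sequences, among them the Per, Cry and Nr1d genes. PER and CRY proteins return to the nucleus and inhibit that pair, while the REV-ERB receptors encoded by Nr1d1 and Nr1d2 repress Arntl and other genes through response elements that they share with the activating ROR receptors. Fibroblasts carry this loop cell by cell, and Per1 in addition responds quickly to serum, cyclic AMP and glucocorticoids.

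The promoters of 4 members are shown because they place the sequences read by the clock beside the genes whose values differed most and least between the groups. Each is the 250 bases before a RefSeq transcription start on GRCm38.p6, written 5′ to 3′ on the gene's strand, with motif matches in capitals. Nr1d1 lies at chr11:98775378-98775627 (minus strand), Per1, at the first of its 2 listed starts, at chr11:69098699-69098948 (plus strand), Cry2 at chr2:92434070-92434319 (minus strand) and Cry1 at chr10:85185055-85185304 (minus strand).
Nr1d1: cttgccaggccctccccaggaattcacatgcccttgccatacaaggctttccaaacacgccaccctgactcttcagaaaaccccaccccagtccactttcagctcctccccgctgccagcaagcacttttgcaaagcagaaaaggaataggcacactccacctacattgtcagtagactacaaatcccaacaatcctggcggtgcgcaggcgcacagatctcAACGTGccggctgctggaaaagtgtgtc
Per1: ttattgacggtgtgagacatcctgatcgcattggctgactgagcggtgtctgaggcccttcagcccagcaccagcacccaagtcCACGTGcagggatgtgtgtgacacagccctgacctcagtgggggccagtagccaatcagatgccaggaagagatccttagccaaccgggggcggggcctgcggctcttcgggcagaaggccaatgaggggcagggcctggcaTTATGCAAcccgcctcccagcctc
Cry2: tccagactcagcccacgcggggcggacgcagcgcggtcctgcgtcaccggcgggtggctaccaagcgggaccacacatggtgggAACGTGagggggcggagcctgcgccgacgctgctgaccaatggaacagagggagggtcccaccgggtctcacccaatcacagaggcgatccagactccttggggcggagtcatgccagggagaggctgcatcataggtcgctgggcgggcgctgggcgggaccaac
Cry1: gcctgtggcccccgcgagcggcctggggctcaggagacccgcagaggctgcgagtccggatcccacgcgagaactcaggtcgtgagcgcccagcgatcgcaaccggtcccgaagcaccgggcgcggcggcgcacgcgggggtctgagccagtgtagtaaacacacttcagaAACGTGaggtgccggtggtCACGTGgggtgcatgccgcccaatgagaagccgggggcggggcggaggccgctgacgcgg

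The capitals mark the E-box CACGTG, its variant CACGTT (the E′-box, read AACGTG on the other strand) and the D-box TTATGNAA, which binds the output factors of the clock. Both strands were searched, and none of these motifs overlapped another in the promoters shown. Nr1d1 holds an E′-box that begins 28 bases before the start. Per1 holds an E-box that begins 166 bases and a D-box that begins 24 bases before the start shown. The window before the other listed start of Per1 held none of these motifs. Cry2 holds a single E′-box at 166 bases, whereas Cry1 holds an E-box at 60 and an E′-box at 79 bases. Of the 9 members with a promoter in the RefSeq table, 2 held an E-box, 3 an E′-box and 2 a D-box, the last being Per1 and Per3. Counted per promoter, 2, 3 and 2 of the members' 13 promoters held these motifs. The same windows of all 32817 promoters held an E-box in 6.02%, an E′-box in 3.85% and a D-box in 3.07%. The cyclic AMP element TGACGTCA (1.55% of all promoters) and the RORE consensus bound by REV-ERB and ROR (0.332%) were in none of the members' windows. These matches describe letters in a short window and are not binding sites shown by these data.

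The 2 groups differ in whether the cancer cells had met the compound before injection, and the question is how the host fibroblasts then differ. Among the clock genes the repressor arm was divided. Nr1d1 was 1.48-fold and Per1 1.38-fold lower in GSK, Cry2 and Nr1d2 lay 0.27 and 0.21 (log2) lower, while Per2 and Per3 differed less, Cry1 hardly differed, and the 3 activators lay 0.05 to 0.09 (log2) higher. The activators averaged 9.21 and 9.20 in DMSO and 9.24 and 9.30 in GSK, in each case for library 1 and then library 2. The 7 repressor genes averaged 9.28 and 9.27 in DMSO and 8.98 and 9.08 in GSK.

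**Figure D1:**
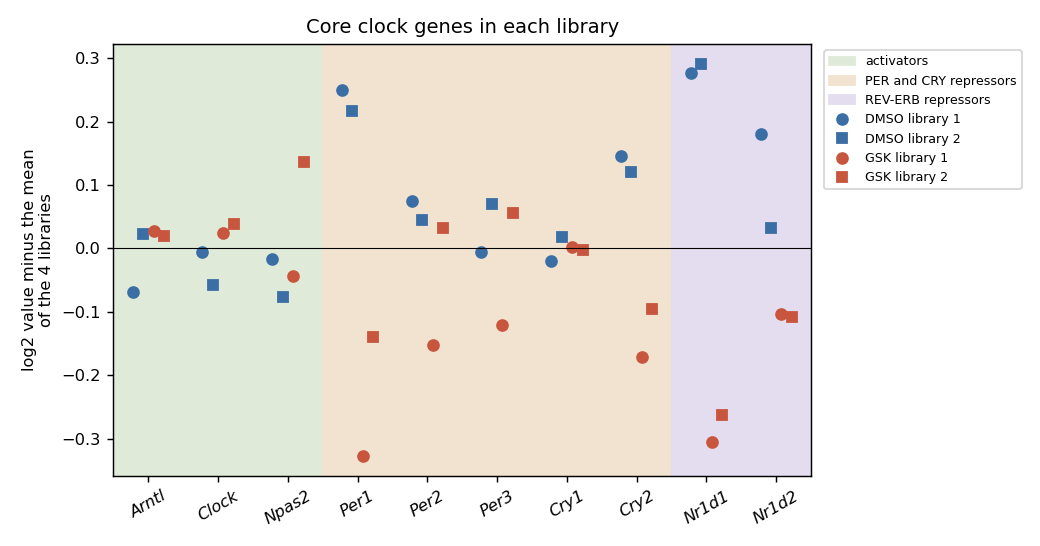
Core clock genes in the 4 libraries. Each point is the log2 value of a gene in 1 library minus that gene's mean over the 4 libraries, with DMSO in blue and GSK in red and the gene's arm as the background colour. Nr1d1, Per1, Cry2 and Nr1d2 have both GSK points below both DMSO points by a visible gap, and Arntl, Npas2, Per3 and Cry1 have overlapping groups.

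Nr1d1 (ENSMUSG00000020889, GRCm38 chromosome 11, 98767932 to 98775333, minus strand) encodes REV-ERB alpha and showed the largest difference of the 10. It measured 11.33 in library 1 and 11.34 in library 2 of DMSO, and 10.75 and 10.79 in those of GSK. Values of further genes are given in the same order. The groups lay 0.54 apart at their nearest libraries, with ranges of 0.016 within DMSO and 0.042 within GSK. The difference was -0.57 ± 0.04 (log2, limma's moderated SE, n = 2 and 2). Exons of Nr1d1 overlap 263 bases of Thra, the thyroid hormone receptor alpha gene on the opposite strand, which is 8.5% of the exon length of Nr1d1. Whether counting used the strand is not given in the sources used here, and some reads could belong to either gene. Thra itself measured 10.36 and 10.37 in DMSO and 10.35 and 10.27 in GSK.

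Nr1d2 (chromosome 14, 18204054 to 18239127) encodes the related receptor REV-ERB beta. Its values were 10.44 and 10.29 in DMSO and 10.16 and 10.15 in GSK, a difference of -0.21 ± 0.06. Both GSK libraries were lower than both DMSO libraries, but the gap of 0.14 was no wider than the range of 0.15 within DMSO. Without DMSO library 1 the difference was -0.139.

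Per1 (chromosome 11, 69095217 to 69109960) encodes the PERIOD protein known for its rapid induction. It measured 10.82 and 10.79 in DMSO and 10.25 and 10.43 in GSK, a difference of -0.47 ± 0.07. The groups did not overlap, and the gap of 0.36 exceeded the range of 0.19 within GSK. Per2, whose product binds CRY and is needed for a sustained rhythm, measured 7.93 and 7.90 in DMSO and 7.70 and 7.89 in GSK, so that GSK library 2 lay just 0.013 below the lower DMSO library. Its difference of -0.12 ± 0.07 became -0.028 without GSK library 1. Per3, the remaining paralogue, measured 7.84 and 7.92 in DMSO and 7.73 and 7.90 in GSK. Its groups overlapped, and the difference of -0.06 ± 0.07 changed sign to 0.023 without GSK library 1. All 3 Per genes were thus lower in GSK library 1 than in GSK library 2.

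Cry2 (chromosome 2, 92403646 to 92434043) and Cry1 encode the cryptochromes, which carry most of the repression of CLOCK and BMAL1. Cry2 measured 9.33 and 9.31 in DMSO and 9.02 and 9.09 in GSK, a difference of -0.27 ± 0.05 with a gap of 0.22 between groups whose own ranges were 0.025 and 0.075. A non-coding transcript, D930015M05Rik, overlaps 4.7% of its exon length on the opposite strand and lay at 2.95 to 2.96. Cry1 measured 7.27 and 7.31 in DMSO and 7.29 and 7.28 in GSK. Its difference was 0.00 ± 0.04, and both GSK values lay between the DMSO values.

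Among the activators, Arntl (chromosome 7, 113207465 to 113314126) measured 9.04 and 9.13 in DMSO and 9.14 and 9.13 in GSK. GSK library 2 lay within the DMSO range, and the difference of 0.05 ± 0.05 was 0.001 without DMSO library 1. Clock measured 10.06 and 10.01 in DMSO and 10.09 and 10.11 in GSK, with no overlap but a gap of just 0.029 and a difference of 0.06 ± 0.04. Npas2 measured 8.52 and 8.46 in DMSO and 8.49 and 8.67 in GSK. Its groups overlapped, and the difference of 0.09 ± 0.07 rested on GSK library 2, without which it was 0.003.

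All 10 members passed the filter on low values and entered the model fitted to 14548 genes. Of these genes 0.131% were called lower and 0.151% higher in GSK at a limma adjusted p below 0.05 (Benjamini-Hochberg), and of the members 1, Nr1d1, was among those called lower. The call of Nr1d1 did not hold with each library left out, and the number of genes called over all tested genes changed as well. With a library left out, the difference ran from -0.588 to -0.546 for Nr1d1 and from -0.56 to -0.372 for Per1. Both GSK libraries lay below both DMSO libraries in 5 members, against 24.5% of all tested genes, and above them in 1 member, Clock, against 24.1%. Taken without direction that is 6 members, where 48.6% of all tested genes had groups that did not overlap. Since the members were chosen with this contrast known, nothing is read from these counts. The median difference was -0.093 over the 10 members, -0.212 over the 7 repressor genes, 0.062 over the 3 activators and -0.001 over all tested genes. The 5th and 95th percentiles of all tested genes were -0.165 and 0.163, and Nr1d1, Per1, Cry2 and Nr1d2 lay outside that span.

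**Figure D2:**
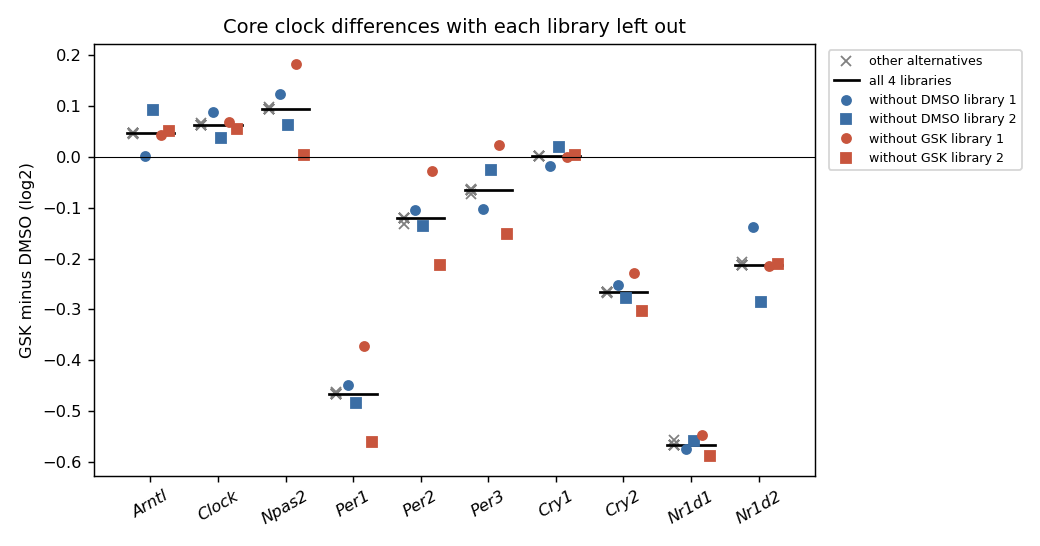
GSK minus DMSO difference (log2) of each core clock gene. The black bar is the value from all 4 libraries, coloured symbols leave out 1 library each, and grey crosses are the other alternatives. Nr1d1 stays between -0.588 and -0.546, whereas Per3 and Cry1 have values on both sides of 0.

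Ratios taken within a library do not depend on how the libraries were scaled. Levels of different clock genes were compared only after dividing by the length of their annotated exons. The size of such a ratio therefore depends on that length, which is the same in each library. Per kilobase of exon, Nr1d1 exceeded Arntl, which its product represses, by 3.58 and 3.50 (log2) in DMSO and by 2.90 and 2.95 in GSK. Per1 exceeded Per2 by 2.95 and 2.94 in DMSO and by 2.60 and 2.60 in GSK, so the ratio of the 2 paralogues was nearly equal within each group although both genes varied within GSK. Cry2 exceeded Cry1 by 1.14 and 1.08 in DMSO and by 0.81 and 0.89 in GSK. In each of these ratios both GSK libraries were lower than both DMSO libraries. The ratios reuse the members' values given above, so nothing further is read from them.

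On the same length-adjusted scale Nr1d1 had the highest level, with a mean of 9.43 ± 0.33 (SD over the 4 libraries). Per1 at 8.08 ± 0.28 and Nr1d2 at 7.83 ± 0.14 followed, and their ranges overlapped. Cry2 came next at 6.53 ± 0.16. The activators lay close together below it, with Clock at 6.29 ± 0.04, Npas2 at 6.27 ± 0.09 and Arntl at 6.20 ± 0.05. The range of Npas2 overlapped those of Cry2, Clock and Arntl, so its place among these 4 is not resolved beyond the spread. Cry1 at 5.55 ± 0.02, Per2 at 5.31 ± 0.10 and Per3 at 4.58 ± 0.09 were lowest, with no overlap among them over the 4 libraries. The length joins all annotated exons of a gene, whichever transcripts were expressed. An error in that length is not part of the spread given here. The 4 genes at the top of the order were also the 4 with the largest differences between the groups. Whether differences grow with level over all genes was not tested, so nothing is read from this.

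**Figure D3:**
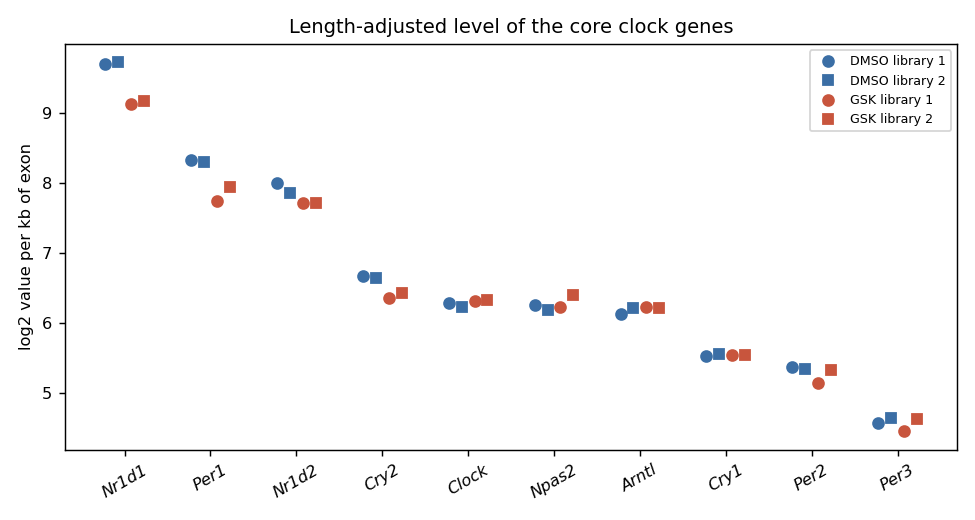
Length-adjusted level of the 10 core clock genes, ordered by their mean. The vertical axis is the deposited log2 value minus log2 of the annotated exon length in kilobases, with 1 point per library. Nr1d1, Per1 and Nr1d2 stand above 7.7 in each library, and the remaining 7 genes stand below 6.7.

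The other genes of the pathway were taken from 5 lists that exclude the members. The analysis covered 38 of their genes. None passed a limma adjusted p of 0.05. An unadjusted p below 0.05 was found for 6 of them, or 15.8%, against 16.0% of all tested genes. Both GSK libraries lay below both DMSO libraries in 8 (24.5% of all tested genes) and above them in 7 (24.1%), and the median difference was -0.005.

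Genes of clock output and E-box targets had 5 of 7 negative differences, against 7349 of the 14548 tested genes, and a median of -0.107. Of the 7, 3 had an unadjusted p below 0.05, against 16.0% of all tested genes, and none passed the adjusted threshold. Bhlhe40, which encodes the E-box repressor DEC1, measured 13.12 and 13.13 in DMSO and 12.84 and 12.76 in GSK (difference -0.32 ± 0.05, limma adjusted p = 0.0653). Nfil3 encodes a repressor that competes at D-boxes and measured 10.41 and 10.37 in DMSO and 10.14 and 10.01 in GSK (difference -0.31 ± 0.06, limma adjusted p = 0.0725). In both genes the GSK libraries lay below the DMSO libraries. The D-box activators Hlf and Dbp were at -0.11 ± 0.04 and -0.13 ± 0.07 (limma adjusted p = 0.302 and 0.43). Dbp, a direct target of CLOCK and BMAL1, measured 8.43 and 8.53 in DMSO and 8.25 and 8.44 in GSK, so its groups overlapped.

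The ROR receptors, which activate the elements that REV-ERB represses, had overlapping groups. Rora was at 0.04 ± 0.07 and Rorb at 0.04 ± 0.06. Among 10 kinase and ubiquitin pathway genes that act on the stability of PER and CRY, none had an unadjusted p below 0.05 and the differences ran from -0.127 to 0.060. The 4 with the smallest p were the casein kinase genes Csnk1a1 at -0.13 ± 0.06 and Csnk2a1 at 0.06 ± 0.04, the deubiquitinase gene Usp2 at -0.08 ± 0.04 and the F-box gene Fbxw11 at 0.03 ± 0.04.

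Of 13 partners and cofactors, 2 had an unadjusted p below 0.05 and none passed the adjusted threshold. Arntl2, the paralogue of Arntl, measured 7.38 and 7.47 in DMSO and 7.67 and 7.61 in GSK (difference 0.22 ± 0.05, limma adjusted p = 0.138), with no overlap. Timeless, a replication fork protein related to the fly clock gene, was at -0.12 ± 0.05 (limma adjusted p = 0.309). Ncor1, the co-repressor recruited by REV-ERB, was at 0.10 ± 0.04 and Cipc, which encodes an inhibitor of CLOCK, at 0.09 ± 0.05. Among 6 genes that carry cyclic AMP and glucocorticoid signals to the clock, Sik1, a kinase gene induced through CREB that restrains CREB coactivators, had the smallest p. It measured 11.36 and 11.30 in DMSO and 10.96 and 10.79 in GSK (difference -0.46 ± 0.06, limma adjusted p = 0.0567, and 0.042 without GSK library 1). The transcription factor Creb1 was at 0.08 ± 0.05, its coactivator Crtc1 at -0.06 ± 0.06 and the glucocorticoid receptor gene Nr3c1 at -0.04 ± 0.06.

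**Figure D4:**
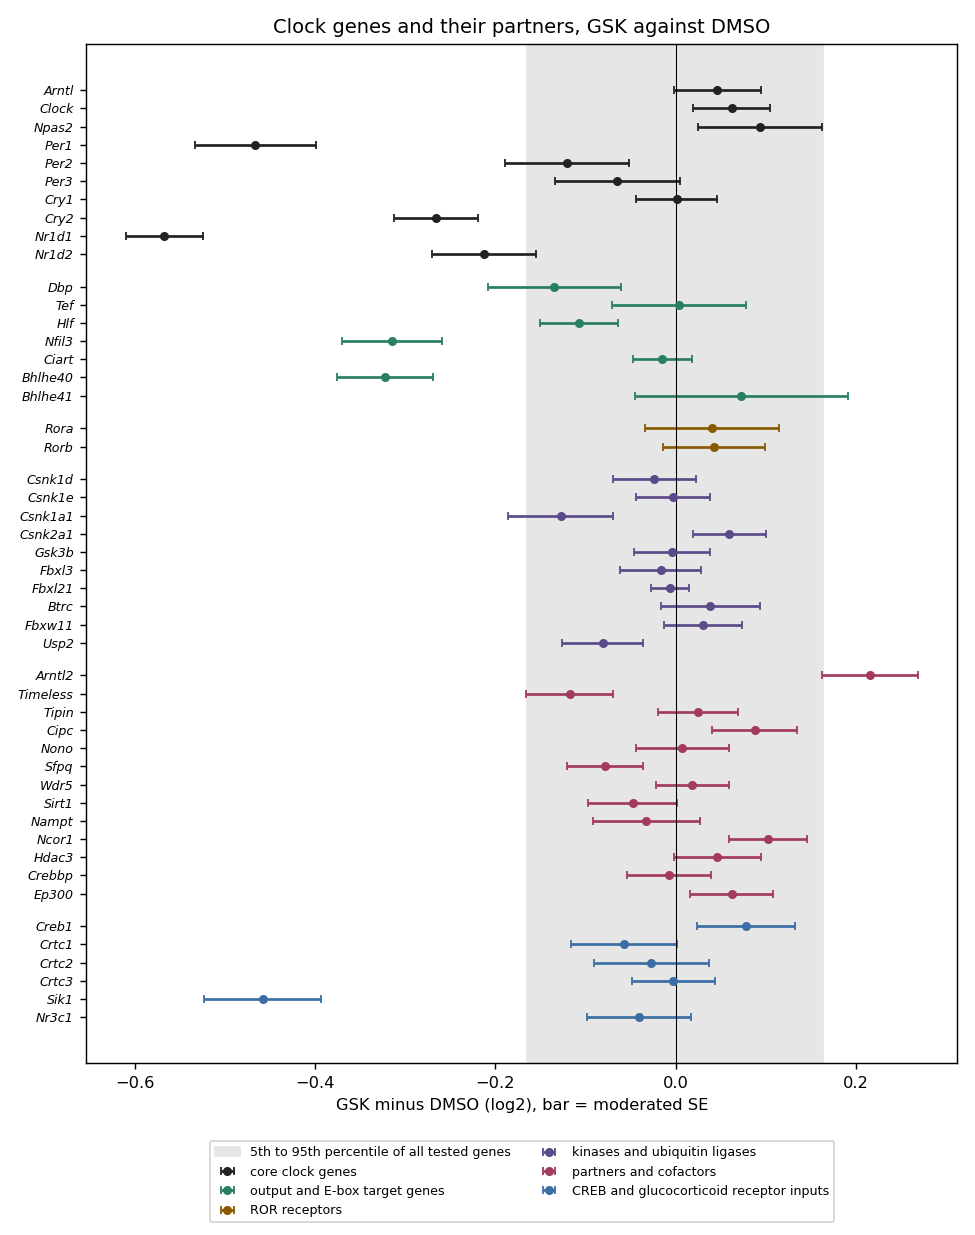
GSK minus DMSO difference (log2) of the core clock genes and of 38 other genes of the pathway, with bars of 1 moderated SE. The grey band runs from the 5th to the 95th percentile of all tested genes (-0.165 to 0.163). Outside it on the negative side lie Per1, Cry2, Nr1d1, Nr1d2, Nfil3, Bhlhe40 and Sik1, and on the positive side Arntl2.

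Immediate early genes were set beside the clock genes because Per1 belongs to both programmes. Of 20 such genes, which respond within minutes to growth factors, stress or tissue digestion, none passed the adjusted threshold. An unadjusted p below 0.05 was found for 15, against 16.0% of all tested genes, and 17 had both GSK libraries below both DMSO libraries, against 24.5% (median difference -0.241). Myc was at -0.68 ± 0.09, the orphan receptor gene Nr4a1 at -0.44 ± 0.06 and Klf4 at -0.52 ± 0.09 (limma adjusted p = 0.0543, 0.0546 and 0.0672). Some of the 20 were called lower without DMSO library 2 or without GSK library 1. Both of those fits also called more genes over all tested genes. The list averaged 12.76 and 12.66 in DMSO and 12.50 and 12.30 in GSK. Within GSK the list was lower in library 2, whereas Per1, Cry2 and Nr1d1 were lower in library 1. Nr1d2, at 10.156 and 10.152 in GSK, was very slightly lower in library 2. The part of the immediate early genes in the difference of Per1 was not tested.

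None of 8 pericyte and smooth muscle markers passed the adjusted threshold (smallest limma adjusted p = 0.126). Some were called higher without DMSO library 2, in a fit that also called more genes over all tested genes. Both GSK libraries lay above both DMSO libraries in 4 of them, against 24.1% of all tested genes, and below them in 2, against 24.5%. Their summed level was 13.92 and 14.20 (log2) in DMSO and 14.33 and 14.33 in GSK. DMSO library 1 stood apart on this list. The DMSO libraries differed by at most 0.0333 for Nr1d1, Per1 and Cry2, and by 0.147 for Nr1d2, with library 1 the higher. The summed pan-leukocyte level was 11.14 and 10.86 in DMSO and 11.98 and 11.40 in GSK. It rested mainly on Cd53, which was at 10.70 and 10.46 in DMSO and 11.81 and 11.15 in GSK, and less on Cd3e, which was lower in GSK, at 8.997 and 8.550 in DMSO and 8.546 and 8.405 in GSK. Ptprc measured 3.77 to 3.91 and Cd79a 1.70. The summed endothelial level was 10.8 in both DMSO libraries and 11.5 and 11.1 in GSK and rested on Flt1, since Pecam1 measured 3.30 to 3.34. The summed epithelial or 4T1 level was 9.13 and 9.07 in DMSO and 8.93 and 8.73 in GSK and rested on Krt19. The part of other cell types in the clock differences was not tested.

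**Figure D5:**
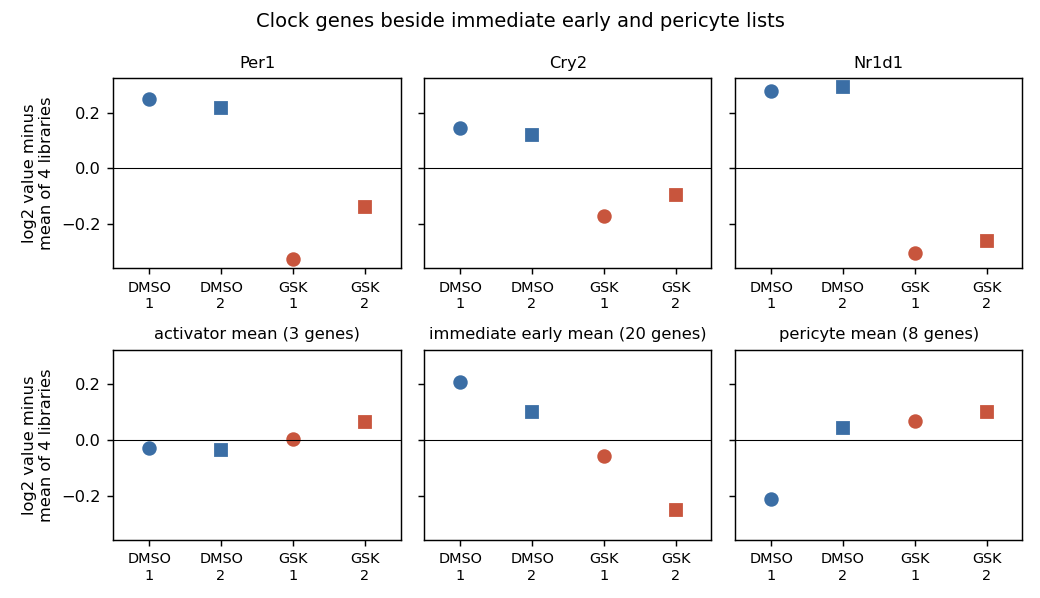
Nr1d1, Per1 and Cry2 beside the means of the activators, the immediate early list and the pericyte list. Each point is 1 library, as log2 value minus the mean of the 4 libraries. The 3 repressor genes shown and the immediate early mean are lower in both GSK libraries than in both DMSO libraries. GSK library 1 is lowest for these 3 genes and GSK library 2 for the immediate early mean. Nr1d2 is not shown. The pericyte mean is lowest in DMSO library 1.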

How the data were processed

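RNA of tumour fibroblasts was sequenced in 4 libraries, 2 per group by the treatment in the titles. The authors deposited normalised values on a log2 scale for 22456 Ensembl genes. Of tools, DESeq2 1.12.4, RSEM 1.2.29 and Bowtie2 appear in the submitters' processing notes, as do GRCh38 and mm10, with no role for any. How the values were transformed is not given in the sources used here. Values ran from -1.035 to 20.58, with library medians of 6.15 to 6.16.

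Symbols, coordinates and exon lengths came from GENCODE M21 (GRCm38, 22357 identifiers matched), promoters from RefSeq (GRCm38.p6). The fit in R 4.3.3 with limma 3.58.1 used the group only, a variance prior with trend, genes whose mean reached 3.32 (log2 of 10), two-sided p-values and Benjamini-Hochberg adjustment over 14548 genes. A fold change is the antilog of the log2 difference. On simulated data for this comparison with 14548 genes, the fit called 92% of genes changed by 0.5 (log2) and 100% of those changed by 1. The simulated noise was normal, independent between libraries and drawn from the fitted variance prior. These shares therefore do not give the power in the real libraries, and a gene not called is not shown to be unchanged. Members' transcripts were aligned with blastn 2.17.0 to all transcripts. At 98% identity over at least 200 bases, Nr1d1 matched Thra and no other member matched another gene.

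The members and lists were chosen with earlier results of these data known. All members were named, with every called gene or otherwise the 4 of smallest p of each other clock list, and 3 of the immediate early and glucocorticoid lists. D930015M05Rik, Thra and the single markers were named after their values were seen. Alternatives were other filters, scalings and variance priors, the replicate number as a block, and each library left out.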

Additional observations from a re-analysis of the deposited data

How the results depend on the processing

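Nr1d1, Per1, Per2, Cry2 and Nr1d2 were lower and Arntl, Clock and Npas2 higher in GSK under all 11 alternatives. Per2, Arntl and Npas2 came near 0 with 1 library left out. The filters, variance priors and replicate block cannot alter a gene's difference. Where the groups do not overlap, leaving out 1 library cannot change its sign. The number of alternatives therefore adds no support for these signs. Per3 was on the other side of 0 in 1 alternative and Cry1 in 2. The number of genes past the threshold, 41 in all, depended on the settings: 1 with no filter, 23 after quantile normalisation, 11 with a variance prior without trend and 138 with a robust prior. With a library left out it was 7 to 194: leaving out DMSO library 1 gave 7, DMSO library 2 gave 194 and GSK library 1 gave 70. With a robust prior 2 immediate early genes, Nr4a1 and Myc, passed. Of the other clock genes, 1 passed with a robust prior and 0 to 1 with a library left out. Among the members none was called with no filter. The cause was not tested.

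The replicate number pairs nothing that the labels state. As a block it gave 1374 genes, 4 of the other clock genes, 13 of 20 immediate early genes and 4 members (Nr1d1, Per1, Nr1d2 and Cry2), with 1 residual degree of freedom. Deviations of the libraries numbered 1 correlated across genes at 0.428. With 2 libraries per group and no counts, precision by depth could not be given.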

Other observations

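Genes induced by glucocorticoids, a signal that resets clocks in peripheral tissue, had a median difference of -0.086. Of them 7 of 10 were negative, against 7349 of the 14548 tested genes. Of the 10 tested, 1 was called lower, against 0.131% of all tested genes. This was Sgk1, a kinase gene, which measured 11.35 and 11.17 in DMSO and 10.61 and 10.68 in GSK (difference -0.61 ± 0.07, limma adjusted p = 0.0366). It missed the threshold with each of DMSO library 1, GSK library 1 and GSK library 2 left out (limma adjusted p = 0.0756, 0.0543 and 0.0595), with no filter (0.222), after quantile normalisation (0.0555) and with a variance prior without trend (0.0655). The metallothionein genes Mt1 and Mt2 were at -0.53 ± 0.11 and -0.64 ± 0.13 (limma adjusted p = 0.101 and 0.106). Fkbp5 and Tsc22d3, both induced by the glucocorticoid receptor, were at 0.05 ± 0.05 and 0.20 ± 0.07 (limma adjusted p = 0.709 and 0.227; chosen after their values were seen).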
